A study of Homo sapiens with 6 samples.

Results

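The genes described here encode 10 enzymes of serine, asparagine and one-carbon synthesis: PHGDH, PSAT1, PSPH, SHMT1, SHMT2, MTHFD1, MTHFD2, MTHFD1L, ALDH1L2 and ASNS. They were chosen by gene name from a count table of 27394 names, and each of the 10 had an entry and passed the filter on low counts. RNA-seq had been made from Huh7, an established human hepatocellular carcinoma line grown with fetal bovine serum. The control group was 3 libraries of cells carrying a control shRNA, a short hairpin RNA, and labelled WT, and the other group was 3 libraries of cells with an shRNA against CTSV, the gene of the lysosomal protease cathepsin V, labelled CTSV knockdown. Both groups had been harvested at the same time points, per the series design. The sources used here do not give the number of shRNAs, their sequences or whether each line was 1 clone or a pool. Since no label ties the libraries of a group to separate cultures, the p-values cover the spread between libraries alone, and that spread may be technical.

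As background, cells make serine from the glycolytic intermediate 3-phosphoglycerate in a short cytosolic pathway: PHGDH oxidises it, PSAT1 transfers an amino group from glutamate and PSPH removes the phosphate. SHMT1 in the cytosol and SHMT2 in mitochondria then split serine into glycine and a carbon unit carried by tetrahydrofolate. In mitochondria MTHFD2 and MTHFD1L carry that unit on to formate, ALDH1L2 oxidises formyl folate to carbon dioxide with production of NADPH, and in the cytosol MTHFD1 puts formate back onto folate for purine and thymidylate synthesis. ASNS makes asparagine from aspartate and glutamine. Several of these genes are known targets of ATF4, a transcription factor translated when amino acids run short.

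Library totals lay between 16258803 and 18106207 counts. CTSV itself stood at 42.3, 44.5 and 41.0 CPM (read counts scaled to library size after TMM normalisation) in the control libraries and at 18.4, 16.0 and 16.3 CPM after knockdown. The groups did not overlap, and the log2 fold change, knockdown over control, was -1.34. All 10 hepatocyte markers checked, among them ALB, AFP and HNF4A, exceeded 1 CPM in every library, and their summed level was 34060 to 34804 CPM in controls and 41558 to 42602 CPM in knockdown libraries. Of the leukocyte markers, PTPRC and CD68 had no entry in the table used here, and the 3 with an entry summed to 73.4 to 81.2 CPM in controls and 55.2 to 60.5 CPM in knockdown libraries, most of it from LYZ, the only one above 1 CPM in every library. Summed levels were 46.4 to 52.6 and 61.6 to 69.0 CPM for 5 fibroblast and stellate markers, 171.9 to 188.8 and 168.9 to 183.5 CPM for 3 cholangiocyte markers, and 16.7 to 21.7 and 17.3 to 19.2 CPM for PECAM1, the 1 endothelial marker with an entry. The share of counts from the mitochondrial genome was 9.23% ± 0.245 without and 11.6% ± 0.208 with the knockdown (SD, n = 3 each). The part of these shifts in the results below was not tested, except that the fit was repeated without the mitochondrial genome.

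Promoters are shown because most of these genes moved together. RefSeq windows on GRCh38.p14, from 250 bases before to 50 bases after an annotated start, were found for 7 of the 10 genes, 11 windows in all. No window was matched for PSPH, SHMT2 and ALDH1L2. Capitals mark matches to TGATGNAA, the core of the C/EBP-ATF response element (CARE) that ATF4 is known to bind, searched on both strands. ASNS and MTHFD1L are printed because they hold that match, PSAT1 and MTHFD2 because they are among the genes with the deepest falls, and SHMT1 because it was not called. Each is given 5′ to 3′ on the strand of its gene.
ASNS, chr7:97872359-97872658, minus strand: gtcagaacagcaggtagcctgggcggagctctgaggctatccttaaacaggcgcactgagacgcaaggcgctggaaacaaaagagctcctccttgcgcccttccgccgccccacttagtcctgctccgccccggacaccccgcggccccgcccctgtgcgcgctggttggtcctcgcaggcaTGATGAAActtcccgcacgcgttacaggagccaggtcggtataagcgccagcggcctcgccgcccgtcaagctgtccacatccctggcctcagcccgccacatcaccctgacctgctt
MTHFD1L, chr6:150866236-150866535, plus strand: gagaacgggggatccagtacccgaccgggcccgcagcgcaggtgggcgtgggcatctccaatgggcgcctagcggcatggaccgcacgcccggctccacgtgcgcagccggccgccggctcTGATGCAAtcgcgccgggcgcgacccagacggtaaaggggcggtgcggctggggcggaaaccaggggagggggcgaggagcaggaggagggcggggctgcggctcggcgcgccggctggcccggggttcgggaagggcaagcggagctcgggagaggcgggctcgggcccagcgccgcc
PSAT1, chr9:78296875-78297174, plus strand: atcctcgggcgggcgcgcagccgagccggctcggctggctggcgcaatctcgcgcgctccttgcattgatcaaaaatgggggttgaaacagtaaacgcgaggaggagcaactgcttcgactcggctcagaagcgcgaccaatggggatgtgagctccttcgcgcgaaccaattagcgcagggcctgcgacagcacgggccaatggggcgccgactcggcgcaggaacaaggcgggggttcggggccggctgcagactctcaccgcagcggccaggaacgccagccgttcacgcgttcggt
MTHFD2, chr2:74198365-74198664, plus strand: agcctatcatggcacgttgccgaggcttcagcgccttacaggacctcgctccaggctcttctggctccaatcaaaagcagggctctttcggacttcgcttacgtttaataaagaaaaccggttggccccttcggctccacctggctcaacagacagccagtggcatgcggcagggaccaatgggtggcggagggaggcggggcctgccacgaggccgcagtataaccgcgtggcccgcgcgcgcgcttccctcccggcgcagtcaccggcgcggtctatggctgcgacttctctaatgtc
SHMT1, chr17:18363501-18363800, minus strand: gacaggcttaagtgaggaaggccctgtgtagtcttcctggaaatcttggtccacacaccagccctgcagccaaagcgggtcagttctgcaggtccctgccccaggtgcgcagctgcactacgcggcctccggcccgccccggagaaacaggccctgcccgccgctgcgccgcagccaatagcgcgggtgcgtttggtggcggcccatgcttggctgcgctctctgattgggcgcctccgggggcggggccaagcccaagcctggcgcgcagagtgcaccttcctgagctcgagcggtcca

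The CARE core was found in 4 of the 11 windows, which belong to 2 of the 7 genes, ASNS and MTHFD1L. It stands in 3.62% of all 35116 promoter windows of this length and in at least 1 window of 4.46% of the 27305 genes with a window. In ASNS the match begins 68 bases before the start. In MTHFD1L, which has 4 windows, 3 overlapping ones hold one and the same match, which begins 129 bases before the start of the window printed above. MTHFD2, PSAT1, PHGDH and MTHFD1, which fell, have no match in their windows, and neither has SHMT1. The E-box CACGTG, which MYC and related factors bind, was found for MTHFD1 and MTHFD1L, and stands in at least 1 window of 8.77% of genes. The antioxidant element TGACNNNGC, bound by NRF2, was found on the reverse strand for MTHFD2, and stands in at least 1 window of 16.1% of genes. The cyclic AMP element TGACGTCA (2.25% of genes) and the AP-1 site TGANTCA (9.37%) were found for none of the 7 genes. No matches in these windows overlapped each other. A match describes letters, not binding, and a missing match speaks only of this window.

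**Figure D1:**
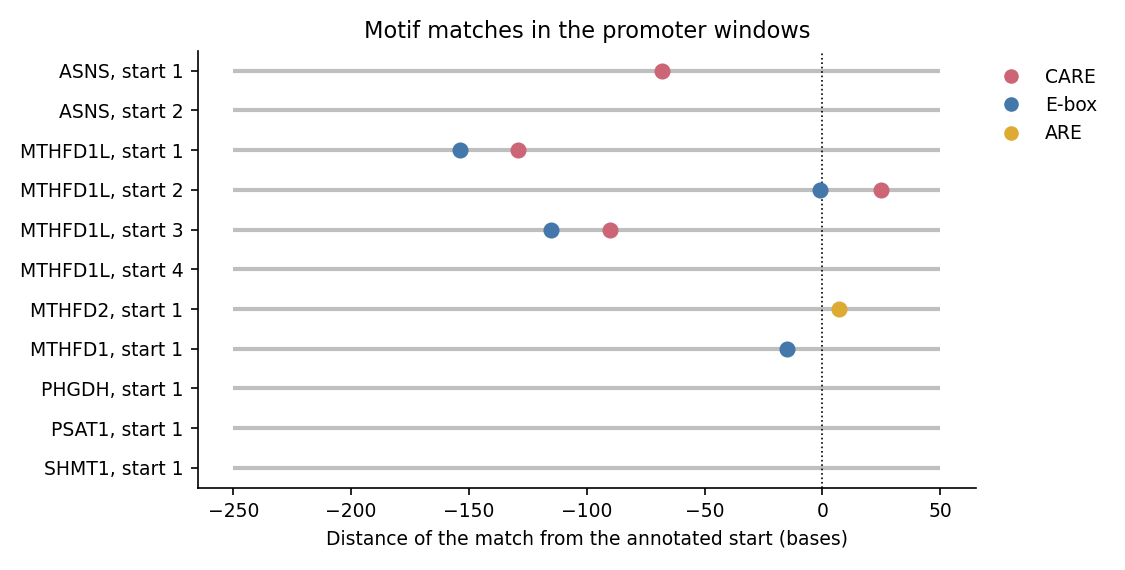
Position of motif matches in the 11 promoter windows of 7 genes, as the distance in bases of the match's first base, in the gene's direction, from the annotated start. Each grey line is 1 window from 250 bases before to 50 after the start, and colours give the motif. ASNS and MTHFD1L hold the CARE core, and PHGDH, PSAT1 and SHMT1 hold none of the 5 motifs.

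In the knockdown libraries, 8 of the 10 genes fell, none rose, and SHMT1 and ASNS were not called. SHMT2, MTHFD2, MTHFD1L, ALDH1L2 and PSAT1 fell to between 56.3% and 65.7% of the control level, PHGDH to 68.2%, PSPH to 79.9% and MTHFD1 to 87.2%. Calls rest on the quasi-likelihood test of edgeR, at a Benjamini-Hochberg adjusted p below 0.05 over 15968 genes. By that rule 21.6% of all genes tested were lower and 18.7% were higher. Among the 9475 genes with an average of 10 CPM or more, a level reached by all of these genes but ASNS, 33.3% were lower and 19.8% higher. All 3 knockdown libraries lay under all 3 controls for 8 of the 10 genes, against 25% of all genes tested and 37.1% of those at 10 CPM or more. The median log2 fold change of the 10 was -0.58, beside 0.02 for all genes tested and -0.07 for those at 10 CPM or more. In these bulk samples, fewer cells with a transcript and less transcript per cell cannot be told apart.

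**Figure D2:**
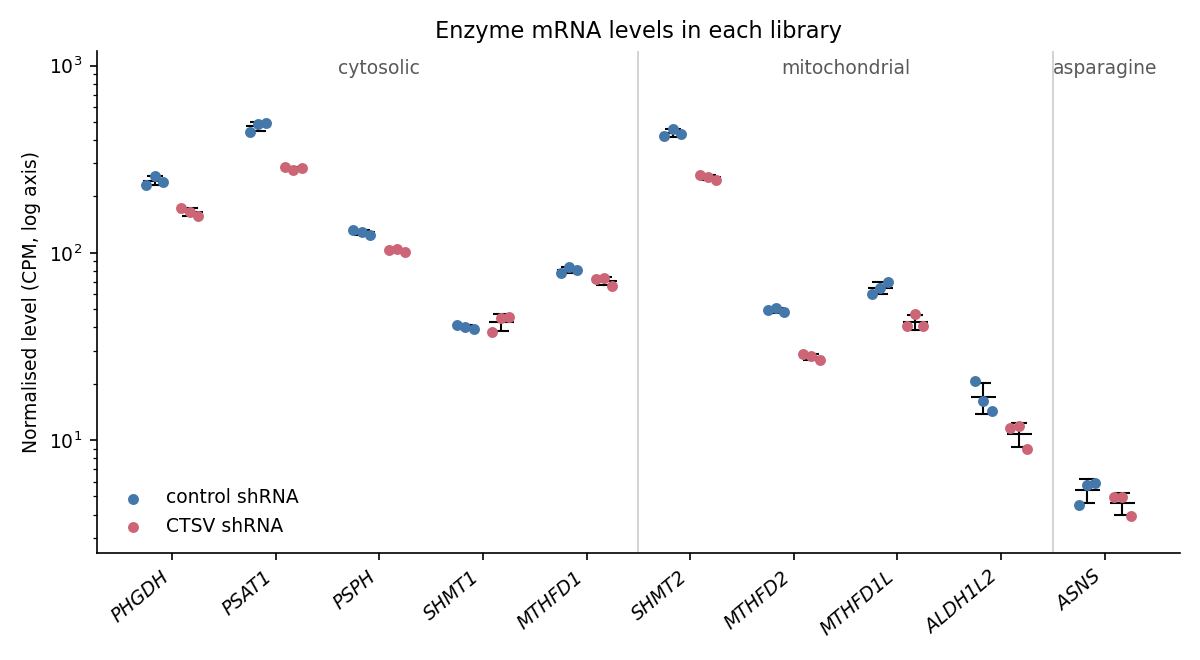
Normalised level of each gene in each of the 6 libraries, in CPM on a log axis. Points are libraries, horizontal bars are means and error bars are SD (n = 3). Control and knockdown points separate for every gene except SHMT1 and ASNS.

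The first step of serine synthesis is catalysed by PHGDH, the enzyme that commits 3-phosphoglycerate to serine. The gene (ENSG00000092621) lies on the plus strand of chromosome 1, from 119648411 to 119744226 on hg38. Control libraries held 231.3, 257.4 and 238.8 CPM, and knockdown libraries 174.1, 164.7 and 157.6 CPM. The lowest control lay well above the highest knockdown library. PHGDH thus had a log2 fold change of -0.55 (SE 0.0523, 95% interval -0.66 to -0.45, adjusted p = 8.1e-11, edgeR).

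PSAT1, the aminotransferase of the pathway, had the highest level of the 10 genes and the most negative fold change of the 3 serine synthesis steps. Its gene (ENSG00000135069) spans 78297143 to 78330093 of chromosome 9, plus strand. Its 3 control libraries held 441.9, 486.5 and 491.9 CPM and its knockdown libraries 286.0, 276.1 and 282.2 CPM. The knockdown libraries were close to each other and far below the controls. This gave a log2 fold change of -0.75 (SE 0.0470, 95% interval -0.85 to -0.65, adjusted p = 2.0e-15, edgeR).

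PSPH, the phosphatase that releases serine, had the smallest change of the 3 steps. On the minus strand of chromosome 7 (ENSG00000146733, 56011051 to 56051604), it was read at 131.7, 129.0 and 125.0 CPM in controls and at 102.9, 104.6 and 100.5 CPM in knockdown libraries. The groups were narrow and did not overlap. The log2 fold change was -0.32 (SE 0.0548, 95% interval -0.44 to -0.21, adjusted p = 8.7e-06, edgeR). PSPH has a pseudogene on the same chromosome, PSPHP1, with 300, 276 and 256 counts in controls and 224, 293 and 356 in knockdown libraries, which was not called (log2 fold change 0.05, adjusted p = 0.803, edgeR). The sources used here do not say how reads matching both were assigned, so the PSPH value is uncertain, and with both genes' counts added the log2 fold change was -0.28.

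The 3 steps of serine synthesis thus had fold change estimates of different size, that of PSPH being uncertain as said above. The count ratio of PSAT1 to PSPH was 3.36, 3.77 and 3.94 in control and 2.78, 2.64 and 2.81 in knockdown libraries, that of PSAT1 to PHGDH 1.91, 1.89 and 2.06 against 1.64, 1.68 and 1.79, and that of PHGDH to PSPH 1.76, 2.00 and 1.91 against 1.69, 1.57 and 1.57. In each of the 3 ratios the groups did not overlap. Chosen after the values were seen, each gave a two-sided exact permutation p of 0.1, the smallest that 3 against 3 libraries allow (0.1 also after adjustment over the 3 ratios).

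The 4 mitochondrial folate enzymes among the 10 genes fell. SHMT2, which makes glycine and loads folate inside mitochondria, spans 57229327 to 57234935 of chromosome 12, plus strand (ENSG00000182199). It stood at 420.2, 460.1 and 433.5 CPM in controls and at 259.1, 253.1 and 246.1 CPM in knockdown libraries. No library of one group came near the other group. SHMT2 had a log2 fold change of -0.79 (SE 0.0468, 95% interval -0.89 to -0.70, adjusted p = 3.5e-16, edgeR), the smallest p of the 10.

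MTHFD2, the mitochondrial dehydrogenase and cyclohydrolase that follows SHMT2, had the most negative fold change of the 10 genes. Its place is chromosome 2, 74198562 to 74217565, plus strand (ENSG00000065911). Its controls stood at 49.2, 50.8 and 48.0 CPM and its knockdown libraries at 28.7, 27.9 and 26.8 CPM. The spread within each group was small beside the gap between them. Its log2 fold change was -0.83 (SE 0.0827, 95% interval -0.996 to -0.660, adjusted p = 2.7e-10, edgeR). In GENCODE v29, 27.2% of its merged exon bases are also exons of SLC4A5 on the other strand, and the sources used here do not say whether counting used strand. MTHFD2L, the second mitochondrial enzyme of this step, was at 17.2, 14.4 and 16.0 CPM in controls and 19.1, 16.5 and 16.8 CPM in knockdown libraries, with overlapping groups and no call (log2 fold change 0.14, adjusted p = 0.370, edgeR).

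MTHFD1L, which releases formate in mitochondria, lies on chromosome 6 from 150865549 to 151101887, plus strand (ENSG00000120254). Levels were 60.3, 65.1 and 69.9 CPM in controls and 40.5, 47.1 and 40.5 CPM in knockdown libraries. The groups did not overlap, with knockdown replicate 2 the nearest to the controls. MTHFD1L had a log2 fold change of -0.61 (SE 0.0776, 95% interval -0.76 to -0.45, adjusted p = 5.9e-08, edgeR).

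ALDH1L2, the mitochondrial formyl folate dehydrogenase, had the lowest level of the 4 and the widest spread relative to its level. It spans 105019784 to 105084577 of chromosome 12, minus strand (ENSG00000136010). Its controls held 20.6, 16.1 and 14.2 CPM and its knockdown libraries 11.6, 11.8 and 8.97 CPM. Control replicate 1 stood above the other controls, and the groups still did not overlap. This was a log2 fold change of -0.66 (SE 0.142, 95% interval -0.95 to -0.37, adjusted p = 0.00028, edgeR), and -0.50 without control replicate 1.

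Of the cytosolic folate enzymes, MTHFD1 fell and SHMT1 was not called. SHMT1, the cytosolic counterpart of SHMT2, spans 18327860 to 18363563 of chromosome 17, minus strand (ENSG00000176974). It was at 41.1, 40.4 and 39.3 CPM in controls and at 37.7, 44.7 and 45.7 CPM in knockdown libraries. The groups overlapped, with 1 knockdown library under all controls and the other two above them. SHMT1 had a log2 fold change of 0.08 (SE 0.0837, 95% interval -0.08 to 0.25, adjusted p = 0.446, edgeR), so at this spread a fall as deep as that of SHMT2 lies outside the interval. Exons of SMCR8 on the other strand cover 2.69% of its merged exons.

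MTHFD1, the cytosolic enzyme that carries 3 activities of folate interconversion on a single protein, fell by a small amount. It spans 64388031 to 64463457 of chromosome 14, plus strand (ENSG00000100714). Controls stood at 78.0, 84.1 and 80.8 CPM and knockdown libraries at 72.5, 73.0 and 66.5 CPM. The groups did not overlap, but the gap between the lowest control and the highest knockdown library was narrow. Exons of genes on the other strand cover 11.0% of its merged exons, against 9.51% for SHMT2 and 33.2% for MTHFD2. The log2 fold change was -0.20 (SE 0.0642, 95% interval -0.33 to -0.07, adjusted p = 0.013, edgeR). Without knockdown replicate 3 it was -0.15 and not called (adjusted p = 0.102, edgeR), and over the other alternatives the adjusted p lay between 0.0056 and 0.0471.

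**Figure D3:**
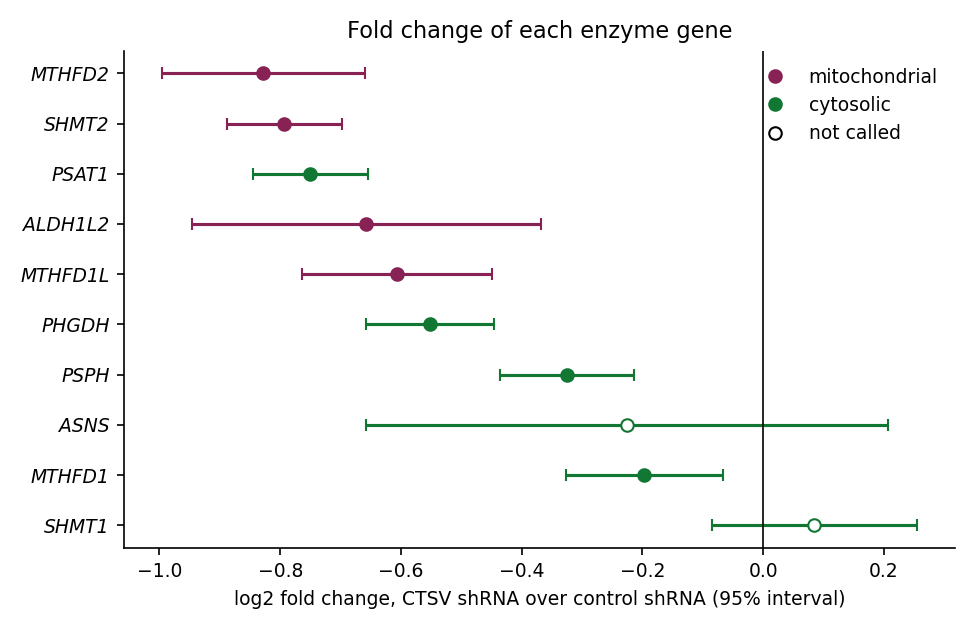
Log2 fold change, knockdown over control, of each gene with its 95% interval from the edgeR fit of 3 against 3 libraries, ordered from the most negative. Filled points passed the test and open points did not, and colour gives the compartment of the enzyme. SHMT2, MTHFD2, MTHFD1L and ALDH1L2 lie between -0.83 and -0.61, and the cytosolic ones between -0.75 and 0.08.

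The question of whether mitochondrial enzymes fell more than their cytosolic counterparts was asked within each library, where library scaling cancels out. The count ratio of SHMT2 to SHMT1 was 10.2, 11.4 and 11.0 in controls and 6.86, 5.67 and 5.39 in knockdown libraries. The groups did not overlap, and the mean log2 ratio went from 3.44 ± 0.0799 to 2.57 ± 0.183 (SD, n = 3 each), 54.7% of the control ratio. The ratio of MTHFD2 to MTHFD1 was 0.631, 0.605 and 0.594 in controls and 0.396, 0.383 and 0.403 in knockdown libraries, 64.7% of the control ratio, again without overlap. The ratio of MTHFD1L to MTHFD1 was 0.773, 0.774 and 0.865 in controls and 0.559, 0.646 and 0.610 in knockdown libraries, 75.3% of the control ratio and without overlap. Each of these 3 ratios had a two-sided exact permutation p of 0.1, the smallest possible with 3 against 3 libraries, and an adjusted p of 0.133 over the 4 ratios tested, so none passed a threshold of 0.05. The last 2 share MTHFD1 as their base.

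The fourth pair could not be compared with any precision. ALDH1L1, the cytosolic counterpart of ALDH1L2 and an abundant enzyme of normal hepatocytes, had only 8, 4 and 15 counts in controls and 2, 3 and 0 in knockdown libraries, and did not pass the count filter. The log2 ratio of ALDH1L2 to ALDH1L1 ranged from 3.76 to 5.49 in controls and from 5.30 to 6.37 in knockdown libraries, with overlap and an exact permutation p of 0.2. A compartment difference for this pair was not detectable at this depth.

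**Figure D4:**
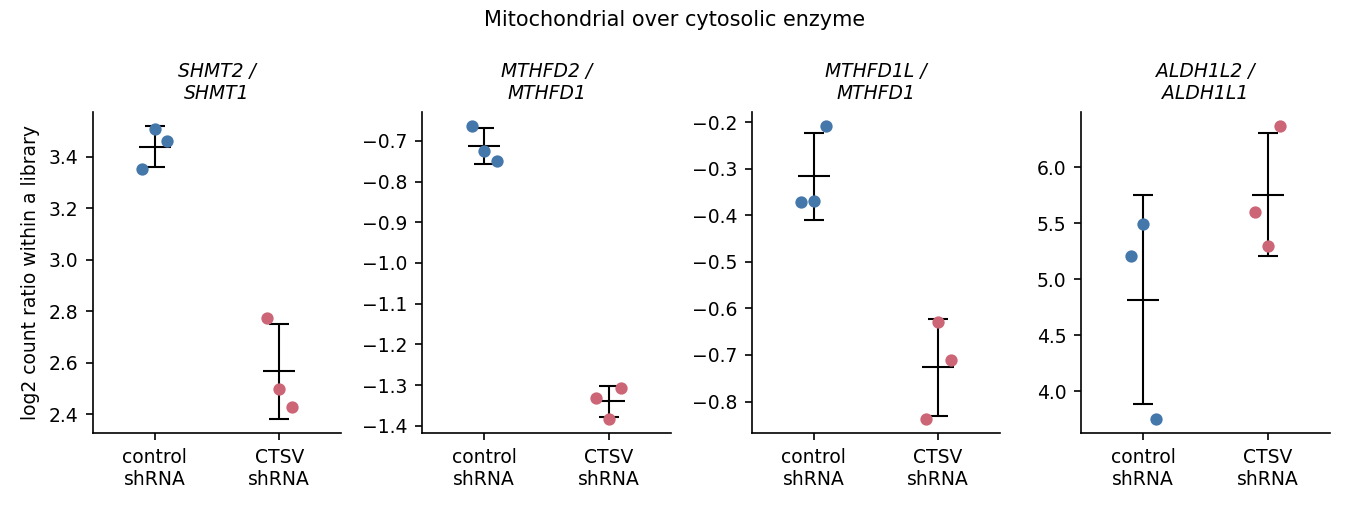
Log2 count ratio of a mitochondrial enzyme to its cytosolic counterpart in each library, with a separate vertical scale for each pair. Points are libraries, bars are means and error bars are SD (n = 3). The first 3 pairs separate into groups with the knockdown libraries lower, and the pair ALDH1L2 over ALDH1L1 overlaps.

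ASNS, the asparagine synthetase and a textbook target of ATF4, was not called, and its count is of uncertain meaning. The gene (ENSG00000070669) spans 97852118 to 97872542 of chromosome 7, minus strand. It had 80, 96 and 95 counts in controls and 82, 82 and 71 in knockdown libraries, or 4.49, 5.78 and 5.92 against 4.96, 4.97 and 3.91 CPM. The groups overlapped, and the log2 fold change was -0.23 (SE 0.213, 95% interval -0.66 to 0.21, adjusted p = 0.423, edgeR). In GENCODE v29, 96.1% of the coding bases and 44.6% of the merged exon bases of ASNS are also exons of AC079781.5. AC079781.5 is a processed transcript on the same strand that has no entry in the table used here. The other 9 genes share at most 1.00% of their merged exon bases with another gene on the same strand. The pseudogene ASNSP1 had more counts than ASNS in every library, 275, 309 and 307 in controls and 188, 247 and 250 in knockdown libraries, and it fell (log2 fold change -0.40, adjusted p = 0.0109, edgeR). With the counts of both added, a choice made after seeing the data, the log2 fold change was -0.36 and passed the test (adjusted p = 0.0105, edgeR). The sources used here do not say how reads matching several genes were counted, so neither the low level nor the missing call of ASNS can be read as that of the whole gene.

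Levels of the enzymes can be ordered once they are divided by length, here the main isoform in GENCODE v29. In controls PSAT1 led with 216.4 ± 12.5 CPM per kb (SD, n = 3), followed by SHMT2 (172.6 CPM per kb), PHGDH (93.8), PSPH (59.0), MTHFD1 (25.8), MTHFD1L (18.1), SHMT1 (16.3), MTHFD2 (11.1), ASNS (2.29) and ALDH1L2 (2.25). The counting limit given above holds for ASNS, so its place in this order is uncertain. Control ranges overlapped only between ASNS and ALDH1L2, and MTHFD1L and SHMT1 were nearly in contact, at 16.7 to 19.4 and 16.0 to 16.7 CPM per kb. In knockdown libraries SHMT1, at 17.3 ± 1.75 CPM per kb, stood above MTHFD1L, at 11.9 ± 1.06 CPM per kb (SD, n = 3 each). The order depends on the length used. Over merged exons MTHFD1L stayed above SHMT1 in knockdown libraries, at 8.51 and 5.86 CPM per kb. In controls over merged exons, PSPH came before PHGDH, MTHFD1L before MTHFD1, MTHFD2 before both MTHFD1 and SHMT1, and ALDH1L2 before ASNS.

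The authors' deposited table, whose log2 fold changes are control over knockdown, called the same 8 genes at an adjusted p under 0.05. It gives SHMT2 0.80, PSAT1 0.76, MTHFD2 0.84 and MTHFD1 0.21 (adjusted p = 0.017), and for SHMT1 and ASNS adjusted p-values of 0.622 and 0.538.

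Most, but not all, of the regulators that background places upstream of these enzymes fell. Of 19 tested, 13 fell, 0 rose and 6 were not called, beside 21.6% of all genes tested lower and 33.3% of those at 10 CPM or more, and their median log2 fold change was -0.53. ATF4, the factor of the amino acid response, was at 538.8, 565.4 and 520.8 CPM in controls and 341.2, 338.3 and 311.4 CPM in knockdown libraries, a log2 fold change of -0.71. MYC, which is known to drive SHMT2 and folate genes, went from 158.3 ± 4.91 to 96.0 ± 3.86 CPM (SD, n = 3 each), a log2 fold change of -0.72. Neither gene's groups overlapped. The ATF4 target and pseudokinase gene TRIB3 (-0.97) and the phosphatase subunit gene PPP1R15A (-0.94), which ends the stress response, fell as well. NFE2L2, which encodes NRF2, another activator of serine synthesis genes, had a log2 fold change of -0.11 and was not called (adjusted p = 0.0555, edgeR). Protein levels and translation of ATF4 were not measured.

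Other genes of the amino acid response fell in 21 of 21 tested cases, beside 21.6% of all genes tested and 33.3% of those at 10 CPM or more, with a median log2 fold change of -0.63. SLC7A11 (-1.61) and SLC3A2 (-0.94), which form the cystine transporter, the leucine transporter gene SLC7A5 (-1.39) and the secreted glycoprotein gene STC2 (-1.25) had the smallest p-values. Fold changes of the 21 ran from -1.61 to -0.35, so MTHFD2, SHMT2, PSAT1, ALDH1L2, MTHFD1L and PHGDH lay inside that range. PSPH (-0.32), ASNS (-0.23), MTHFD1 (-0.20) and SHMT1 (0.08) lay above it, with the ASNS value limited as stated above. CTH and SLC6A9 of this list are also counted among the genes that use serine and glycine.

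Genes that use serine and glycine were called in both directions. Of 23 tested, 9 (39.1%) fell, 3 (13.0%) rose and 11 were not called, with a median log2 fold change of 0.01. Among all genes tested 21.6% were lower and 18.7% higher, and among those at 10 CPM or more 33.3% and 19.8%. CTH, which makes cysteine in the transsulfuration pathway, fell from 65.1 ± 1.56 to 35.0 ± 1.41 CPM (SD, n = 3 each), a log2 fold change of -0.90. The glycine transporter gene SLC6A9 (-0.87) and the phosphatidylserine synthase gene PTDSS1 (-0.51) also fell. SFXN3, a sideroflexin of the mitochondrial inner membrane, rose (0.90), from 7.66 to 14.4 CPM. The next 3 genes were named after their values were seen. SFXN1, a mitochondrial serine carrier gene, had a log2 fold change of 0.03 and was not called (adjusted p = 0.664, edgeR). SFXN2, another sideroflexin gene of this list, rose (0.68, adjusted p = 3.7e-05, edgeR), from 12.8 to 20.5 CPM. The mitochondrial folate carrier gene SLC25A32 fell (-0.52).

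The rest of the folate cycle was read from a list of its own. Among its 14 tested genes 2 (14.3%) fell, 4 (28.6%) rose and 8 missed the threshold, with a median log2 fold change of 0.05. The shares were 21.6% lower and 18.7% higher among all genes tested, and 33.3% and 19.8% among those at 10 CPM or more. The folate carrier gene SLC19A1 (-0.45) and the pteridine reductase gene QDPR (-0.33) fell, and the methionine synthase gene MTR (0.25) and the histidine catabolism gene FTCD (1.15, from 3.20 to 7.10 CPM) rose. The count of risen genes in this list rests on values near the threshold: DESeq2 called 2, and 2 were called by edgeR without control replicate 1 or without knockdown replicate 1. Of 14 tested genes of methionine and choline metabolism, 3 (21.4%) fell, 4 (28.6%) rose and 7 were not called, with a median log2 fold change of 0.08. These stand beside the same 21.6% and 18.7% of all genes tested, and 33.3% and 19.8% at 10 CPM or more. AHCY, which removes S-adenosylhomocysteine, fell (-0.50), as did AHCYL1 (-0.21), while the choline dehydrogenase gene CHDH (0.65) and the betaine methyltransferase gene BHMT (1.33, from 2.21 to 5.57 CPM) rose.

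Genes of purine synthesis, which takes up formyl folate, fell or missed the threshold. Of 11 tested genes, 6 (54.5%) fell, 0 rose and 5 missed the threshold, with a median log2 fold change of -0.29. The shares were 21.6% lower and 18.7% higher among all genes tested, and 33.3% and 19.8% among those at 10 CPM or more. PAICS (-0.38) and GART (-0.42), which carry out consecutive parts of the pathway, ATIC (-0.35), which adds the last formyl group, and PRPS1 (-0.45), which makes the ribose donor, had the smallest p-values. Of 14 tested genes around aspartate, glutamine, glutamate and proline, 8 (57.1%) fell, 2 (14.3%) rose and 4 were not called, with a median of -0.14. These stand beside the same 21.6% and 18.7% of all genes tested, and 33.3% and 19.8% at 10 CPM or more. The ornithine aminotransferase gene OAT (-0.58), the proline synthesis gene PYCR1 (-0.57), the mitochondrial alanine aminotransferase gene GPT2 (-0.44) and the aspartate aminotransferase gene GOT1 (-0.33) fell. Without control replicate 2, 1 gene of this list rose in place of 2.

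**Figure D5:**
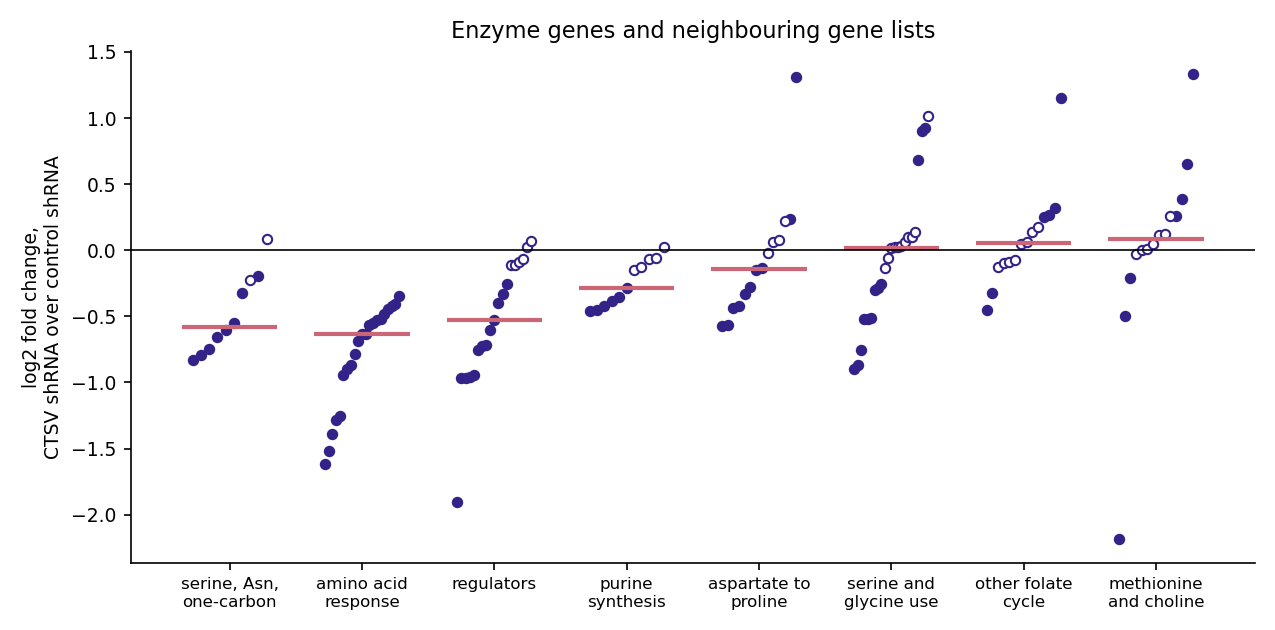
Log2 fold change, knockdown over control, of the 10 enzyme genes and of 7 lists around them, 1 point per tested gene, filled where it passed the edgeR test and open where it did not. Red bars are medians of each list. The amino acid response list lies wholly below 0, and the folate cycle and methionine lists lie on both sides.

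By correlation over the 6 libraries with the mean profile of the 10 genes, the most alike among 8209 genes at an average log2 CPM of 4 or more were SRM (Pearson r = 0.999), EIF4B (0.999), ATIC (0.999), RPF2 (0.999) and ALDH1B1 (0.999). SRM encodes spermidine synthase, EIF4B a translation initiation factor, RPF2 a ribosome assembly factor and ALDH1B1 a mitochondrial aldehyde dehydrogenase. Their log2 fold changes were -0.75, -0.25, -0.35, -0.53 and -0.51. The points share 2 groups of libraries, and 1000 of the 8209 genes had an r above 0.95.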

How the data were processed

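RNA-seq of 6 Huh7 libraries was analysed. TRIzol extraction and an NEBNext Ultra II mRNA kit were used, per the labels' protocols. The authors deposited raw read counts per gene, with HISAT2, StringTie, SAMtools and hg38 named in the submitters' processing notes. The sources used here do not give the counting tool, the annotation or versions. The authors' deposited log2 fold changes and p-values stand in the same table. Of 28915 entries, 1521 were copies of 127 names and were removed.

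The main test was edgeR 4.0.16 (R 4.3.3): glmQLFit and glmQLFTest, TMM, filterByExpr by group, no covariate, Benjamini-Hochberg adjustment over all tested genes. SE and 95% intervals come from the F statistic. The biological coefficient of variation was 6.87%. Ratios used log2 CPM with a prior count of 2. The code was tested on simulated data. Replicates of a group differed by more than counting noise (chi-square per degree of freedom 3.59 to 5.39).

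The genes, lists and tests were chosen with earlier results of these data known. Named genes were the 10 enzymes, CTSV, ATF4, MYC, NFE2L2, the paralogs, the called genes of smallest adjusted p in each list (up to 4), and the 5 most alike. Counts of list members carry no test of the list. Alternatives were RLE size factors, other filters, DESeq2 1.42.0, a replicate block, no mitochondrial genes, all entries kept, length and GC offsets (loess, span 0.5) and leaving out each library.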

Additional observations from a re-analysis of the deposited data

How the results depend on the processing

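Over the 14 alternatives planned for it, the number of the 10 genes called lower was 8 in all but 1, and 7 without knockdown replicate 3, where MTHFD1 was not called; none was called higher. No value of the 10 genes changed direction under any alternative run, and the 4 compartment ratios kept their direction without each library and with a pseudocount of 0.5 on raw counts. SHMT2 lay between -0.83 and -0.76, PSAT1 between -0.80 and -0.73 and ALDH1L2 between -0.77 and -0.50. Without genes of the mitochondrial genome SHMT2 was at -0.80 and MTHFD2 at -0.83. The list of other folate cycle genes had 2 called higher in DESeq2, and 2 to 3 when each library was left out; the aspartate to proline list had 1 to 2 called higher when each library was left out. The cause was not tested. With the replicate number as a block (replicate block), 8 of the 10 genes were called lower and 0 higher, and MTHFD1 had an adjusted p of 0.0113 (edgeR). The numbers were not taken as pairs, since same-numbered libraries correlated at -0.016, 0.045 and 0.141 in their deviations from group means. Low counts limit the values of ASNS (71 to 96 counts) and ALDH1L1 (0 to 15 counts).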
